A study of Mus musculus with 4 samples.

Results

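FOXK1 and FOXK2 and the 4 FOXO proteins are forkhead transcription factors, named for the winged-helix domain with which they bind DNA. Their 6 genes, Foxk1, Foxk2, Foxo1, Foxo3, Foxo4 and Foxo6, were taken by name from a table of 22138 genes measured in mouse embryonic stem cells after knockdown of Hnrnpk, which encodes an RNA- and DNA-binding protein. They were chosen from measured values: the difference between the Hnrnpk siRNA and control libraries was known when they were picked. Their changes are therefore given as a description, with no test. All 6 were in the table and all 6 passed the filter on low values, a mean of at least 0.5 RPKM (reads per kilobase of transcript, scaled to each library's mapped reads) over the 4 libraries. Each was high enough to pass in either group alone.

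The cells were TT2, an embryonic stem cell line on a mixed C57BL/6xCBA background, female per the labels, cultured feeder-free in medium with serum and LIF. In both groups 100 nM of small interfering RNA was given first, followed by 50 nM after 24 hours, and RNA was taken about 72 hours after the later dose. The groups differed in the siRNA, which was a control (siCTRL, n = 2) or directed against Hnrnpk (siHnrnpk, n = 2). The series describes the replicates as biological; no label states that they were separate cultures, so p-values measure only the spread between these libraries, which may be technical.

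In animals and cell lines, insulin and growth factors act through PI3K and AKT, and AKT phosphorylates FOXO proteins so that 14-3-3 proteins hold them in the cytoplasm. FOXO proteins left in the nucleus raise genes of cell cycle arrest, antioxidant defence, cell death and autophagy. FOXK proteins bind related DNA sites, recruit the SIN3 corepressor to autophagy genes when nutrients are plentiful, and have been reported to raise glycolytic genes. These controls act on proteins, which were not measured here.

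Little sequence was shared that could mix their reads. In the longest annotated transcript of each of the 6 genes, Foxo1 shared 1.5% of its length with 1 or more other genes at 95% identity or more. The others shared 0.0%. Exons of Foxo1 overlap 674 bases of Gm20402, an antisense gene. No label states that counting used the strand, so reads of that pair cannot be told apart.

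Hnrnpk itself, the targeted gene, had 236 and 226 RPKM in controls and 68.0 and 70.5 RPKM after Hnrnpk siRNA. The change was -1.73 on the log2(RPKM + 0.5) scale (SE 0.0629). At 95% identity or more, 46.4% of the Hnrnpk transcript is shared with 1 or more other genes, with the largest part in Gm7964. Relative sequencing depth, read from the smallest steps in the RPKM values, was 1 and 0.982 in the controls and 0.891 and 0.882 in the Hnrnpk siRNA libraries. Of 12486 genes past the filter, limma called 67.2% changed at an adjusted p under 0.05, with 32.2% higher and 35.0% lower, and their median log2 change was -0.015. A large share of the transcriptome thus differed between these 4 libraries, and each count below is to be read against those shares. All 10 embryonic stem cell markers were detected, with summed levels of 3930 to 4090 RPKM in controls and 4700 to 5020 RPKM after knockdown. Of the 10, Nanog and Dppa5a were higher, with Dppa5a alone going from 1298 ± 31.0 to 2308 ± 203 RPKM. Another 4 were lower (Sox2 -0.54, Fgf4 -0.30, Utf1 -0.29 and Tdgf1 -0.24) and 4 were not called. Summed markers of two-cell-like cells were 0.958 to 1.03 RPKM in controls and 46.3 to 54.0 RPKM after knockdown. All 8 of them passed the filter through their knockdown libraries only, so no count of calls is given for them. Those of primitive endoderm were 8.54 to 8.85 and 33.6 to 35.1 RPKM (5 of 6 tested higher, with Pdgfra passing the filter through its knockdown libraries), and those of trophectoderm 29.2 to 34.8 and 63.8 to 68.2 RPKM (4 of 4 tested higher). Most of the trophectoderm sum was Krt8 and Krt18 (12.3 and 17.35 RPKM in controls, 22.4 and 32.0 RPKM after knockdown). Of its markers too low to test, Elf5 was lower (means of 0.107 and 0.066 RPKM) and Cdx2 and Krt7 were higher in both knockdown libraries. Fibroblast markers, which feeder cells would carry, summed to 8.34 to 9.75 RPKM in controls and 4.29 to 4.5 RPKM after knockdown. Most of that sum was Thy1 (means of 6.05 and 2.25 RPKM) and Col1a1 (2.57 and 1.79 RPKM). They were the only 2 of the 8 high enough to test, and both were lower. Of the rest, Col1a2 and Twist2 were lower in both knockdown libraries, Lum was higher, and Col3a1, Dcn and Postn overlapped. Neural and mesoderm markers summed to 104 to 117 RPKM in controls and 86.0 to 96.1 RPKM after knockdown. Most of that sum was Tubb3 (means of 104.9 and 87.38 RPKM). Of the 4 neural and mesoderm markers tested, 3 were lower (Pax6, Nes and Tubb3) and 1, T, was higher (log2 change 0.525). The part of these cell states in the values below was not tested. In bulk RNA, fewer cells of a type and less RNA per cell cannot be told apart.

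Of the FOXK genes, Foxk2 showed the largest change of the 6 members and Foxk1 one of the smallest. Foxk2 (ENSMUSG00000039275; GRCm38 chromosome 11, 121259990 to 121309896, plus strand) had 40.7 and 34.3 RPKM in controls and 8.14 and 7.95 RPKM after Hnrnpk siRNA. Both knockdown libraries lay 26.1 RPKM or more below the lower control. Its mean fell from 37.5 ± 4.56 to 8.04 ± 0.141 RPKM (SD, n = 2 in each group), a 4.66-fold difference and -2.15 on the log2 scale (SE 0.0854). Foxk1 (ENSMUSG00000056493; chromosome 5, 142401497 to 142462011, plus strand) was at 7.94 and 7.63 RPKM in controls and at 8.84 and 7.96 RPKM after knockdown. The groups did not overlap, but the nearest libraries were 0.0226 RPKM apart, less than the gap between either pair of replicates. Its log2 change was 0.10 (SE 0.0793).

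Of the FOXO genes, Foxo3 and Foxo1 were higher after knockdown, Foxo4 was lower, and Foxo6 overlapped between the groups. Foxo3 (ENSMUSG00000048756; chromosome 10, 42181841 to 42276755, minus strand), the member best known for driving autophagy, was at 13.8 and 11.2 RPKM in controls and at 26.1 and 24.5 RPKM after Hnrnpk siRNA. Both knockdown libraries were 10.7 RPKM or more above the higher control. The means were 12.5 ± 1.86 and 25.3 ± 1.14 RPKM, a log2 change of 0.996 (SE 0.0950). Foxo1 (ENSMUSG00000044167; chromosome 3, 52268336 to 52353221, plus strand), a regulator of glucose metabolism that is also active in pluripotent cells, was at 15.1 and 14.4 RPKM in controls and at 17.7 and 16.4 RPKM after knockdown. The nearest libraries were 1.25 RPKM apart and the log2 change was 0.20 (SE 0.0708).

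Foxo4 (ENSMUSG00000042903; chromosome X, 101254528 to 101260873, plus strand) was at 7.76 and 8.28 RPKM in controls and at 6.25 and 6.43 RPKM after knockdown. The groups were 1.33 RPKM apart and the log2 change was -0.32 (SE 0.0758). Foxo6 (ENSMUSG00000052135; chromosome 4, 120267079 to 120287349, minus strand), best known from the brain, was at 2.19 and 1.65 RPKM in controls and at 1.497 and 1.82 RPKM after knockdown. One knockdown library lay between the controls and the other below both, so the groups overlapped. Counting units were only estimated, from RPKM, annotated exon length and the smallest steps, as whole reads could not be recovered. Foxo6 had the lowest estimated depth of the 6, about 433 units in its lowest library (a counting error of about 4.81%). Each other member held at least about 2412. The log2 gap between Foxo6 replicates, larger than that estimated error, was 0.32 in the control pair and 0.215 in the knockdown pair. Each gap was reached by 4.9% of tested genes. The control replicates of Foxo3 and Foxk2 were also far apart for this table, with gaps reached by 6.7% and 11.0% of tested genes.

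**Figure D1:**
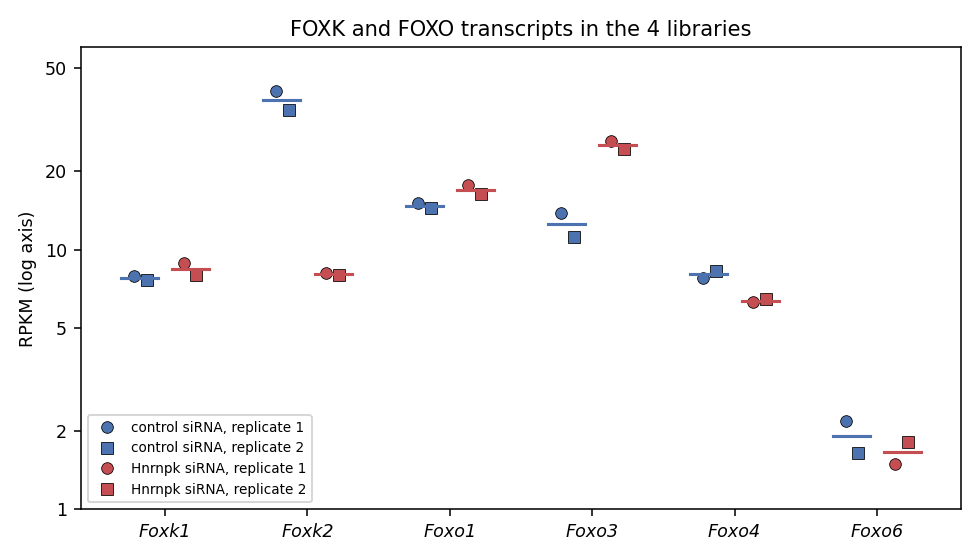
RPKM on a log axis (y) of the 6 genes (x) in each library: circles are replicate 1 and squares replicate 2, blue is control siRNA, red is Hnrnpk siRNA, and lines are the means of 2. Foxk2 drops from 40.7 and 34.3 to 8.14 and 7.95 RPKM and Foxo3 goes from 13.8 and 11.2 to 26.1 and 24.5 RPKM, while the Foxo6 points of both groups mix.

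By library, 3 members (Foxk1, Foxo1 and Foxo3) had both knockdown libraries above both controls, which 41.2% of all tested genes did. A further 2 (Foxk2 and Foxo4) had both below, which 43.5% of tested genes did. These shares are the background for a pattern that also chose the members, and nothing is read from the count.

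The plot by library shows each member on its own scale, and adding them up shows how the balance of the families moved. RPKM is per length, so levels can be compared between genes. The summed FOXK level was 48.7 and 41.9 RPKM in controls and 17.0 and 15.9 RPKM after knockdown. The summed FOXO level was 38.9 and 35.5 RPKM in controls and 51.5 and 49.1 RPKM after knockdown. The FOXK to FOXO ratio was accordingly 1.22 ± 0.0506 in controls and 0.327 ± 0.00399 after knockdown (SD, n = 2 in each group). All 6 together summed to 82.5 ± 7.15 and 66.7 ± 2.48 RPKM, so the loss on the FOXK side was larger than the gain on the FOXO side.

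In control cells the order of levels was Foxk2, Foxo1, Foxo3, Foxo4, Foxk1 and Foxo6. The ranges of Foxo4 and Foxk1 overlapped and those of the other neighbours did not. Foxk2 made up 46.5% and 44.3% of the summed level of the 6 genes in the control libraries, and its mean was above that of 82.1% of tested genes. After knockdown the order was Foxo3, Foxo1, Foxk1, Foxk2, Foxo4 and Foxo6, with overlapping ranges for Foxk1 and Foxk2 alone. Foxk2 was then 11.9% and 12.2% of the sum and above 46.9% of tested genes. Foxo3 went from 15.8% and 14.4% of the sum to 38.1% and 37.7%.

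Within each family the leading gene changed its lead. Foxk2 was 4.81 ± 0.452 times as high as Foxk1 in controls and 0.960 ± 0.0542 times after knockdown, so the 2 paralogs were expressed at like levels in the knockdown libraries. Foxo3 was 0.845 ± 0.0974 times Foxo1 in controls and 1.49 ± 0.0134 times after knockdown. Foxo3 made up 35.5% and 31.5% of the summed FOXO level in controls and 50.7% and 49.9% after knockdown. Across families, the Foxk2 to Foxo3 ratio went from 3.01 ± 0.0838 to 0.318 ± 0.00884. With 2 libraries against 2, an exact permutation test cannot go below p = 0.33, and these ratios rest on members chosen for their change.

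**Figure D2:**
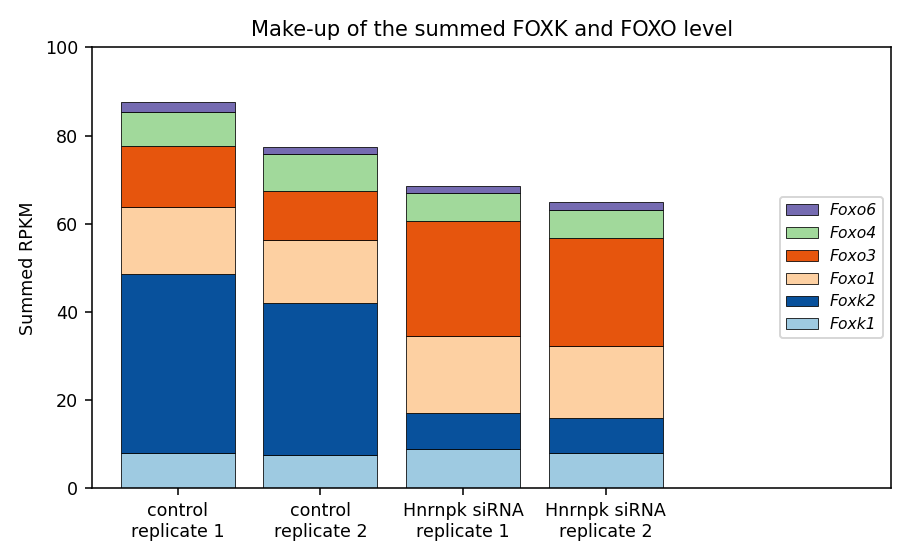
Stacked bars give the RPKM of the 6 genes (y) in each of the 4 libraries (x), 1 color per gene. The dark blue Foxk2 block is 46.5% and 44.3% of the bar in the controls and 11.9% and 12.2% after Hnrnpk siRNA, where the Foxo3 block is the tallest.

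Foxk2 and Foxo3, which changed most and in opposite directions, were next compared by promoter. The 250 bases before each annotated start were taken from RefSeq (GRCm38.p6), which held 3 of the 6 members (Foxk2, Foxo3 and Foxo1). In the lines below, capitals in Foxk2 mark CCAAT, the core of NF-Y sites, and capitals in Foxo3 mark CCCTCCC, a C-rich run of the kind hnRNP K is known to bind. Both were searched on both strands, so ATTGG and GGGAGGG are matches on the opposite strand.
Foxk2, chr11:121259737-121259986, plus strand: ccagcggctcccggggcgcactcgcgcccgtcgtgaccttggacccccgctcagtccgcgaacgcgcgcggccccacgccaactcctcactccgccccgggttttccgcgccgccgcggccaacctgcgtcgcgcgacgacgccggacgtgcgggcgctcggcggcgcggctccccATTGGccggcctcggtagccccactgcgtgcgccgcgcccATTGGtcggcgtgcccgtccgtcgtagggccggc
Foxo3, chr10:42276696-42276945, minus strand: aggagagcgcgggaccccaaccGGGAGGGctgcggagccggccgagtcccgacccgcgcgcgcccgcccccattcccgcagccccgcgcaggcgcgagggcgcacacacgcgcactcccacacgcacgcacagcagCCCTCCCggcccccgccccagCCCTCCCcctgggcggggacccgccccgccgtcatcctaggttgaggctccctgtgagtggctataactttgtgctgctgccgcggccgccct
Foxk2 held 2 CCAAT matches, 74 and 34 bases before the start, and 0 CCCTCCC. Foxo3 held 3 CCCTCCC, 228, 114 and 93 bases before the RefSeq start, and 0 CCAAT. The gene coordinates given above for Foxo3 reach 42276755, which lies inside this window. By those coordinates part of the window is within the gene and the distances to its start are shorter. Of 32851 promoters of the same length, 33.8% held CCAAT and 19.7% held CCCTCCC. The forkhead site GTAAACA, present in 3.17% of promoters, was in neither window. Both windows were rich in CpG: Foxk2 was 78.4% GC with 48 CpG and Foxo3 76.4% GC with 31 CpG, against medians of 52.4% and 6. The Foxo1 window was 56.0% GC with 20 CpG and held 3 CCAAT. A match describes these letters and says nothing about binding.

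The Foxk2 and Foxo3 values held their size under each alternative that can move a log2 change, but those of the smaller members did not all do so. Other filters, a fit without limma's mean-variance trend and a replicate block leave a log2 change as it is. Their agreement was fixed in advance and is not counted here. Leaving out each library in turn gave -2.27 to -2.03 for Foxk2, 0.85 to 1.14 for Foxo3, 0.145 to 0.25 for Foxo1 and -0.36 to -0.27 for Foxo4. The same gave 0.03 to 0.17 for Foxk1 and -0.32 to 0.00 for Foxo6. Removing each library's trend on transcript GC content moved Foxo6 from -0.16 to 0.24, a change of sign. It also moved Foxk1 from 0.10 to 0.22 and Foxo4 from -0.32 to -0.21. The direction of Foxo6 therefore depends on this choice.

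**Figure D3:**
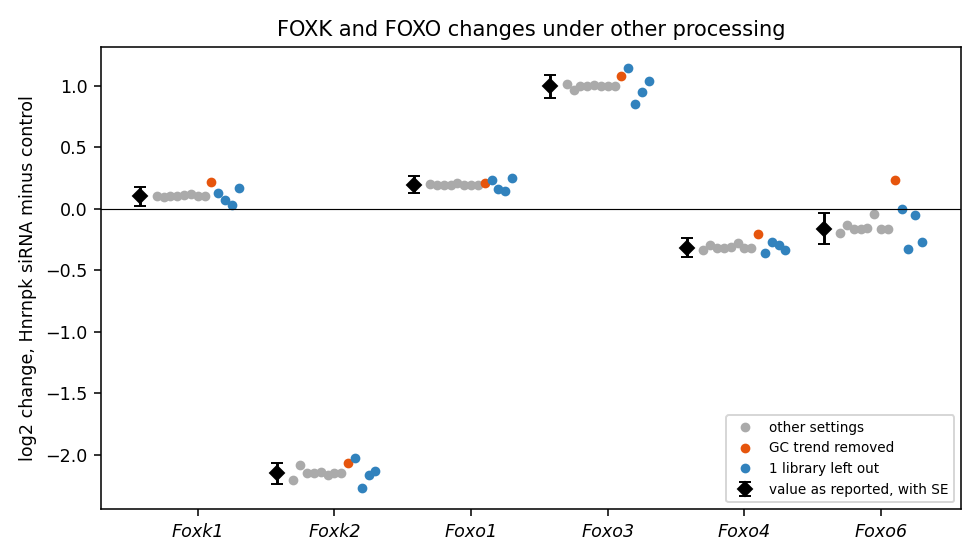
The log2 change of each member (y; Hnrnpk siRNA minus control) as reported, with its SE (black diamond), with 1 library left out (blue), with the GC trend removed (orange) and in the other settings (gray). Foxk2 stays between -2.27 and -2.03 and Foxo3 between 0.85 and 1.14, whereas Foxo6 crosses 0. Gray points for other filters, no mean-variance trend and the replicate block repeat the reported value by construction.

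The genes that act on FOXO proteins and those that FOXO and FOXK proteins are reported to control were then counted by limma's calls. The lists were drawn up from general knowledge, with earlier results of these data known, and no list was tested as a set. Upstream of FOXO, in the arm from the insulin receptors through PI3K to AKT, 15 of 28 tested genes were lower, 6 were higher and 7 were not called, with a median log2 change of -0.28. Igf1r, the receptor for IGF1, was at 6.28 and 5.71 RPKM in controls and at 3.05 and 2.70 RPKM after knockdown (log2 change -0.95, SE 0.0909, adjusted p = 1.57e-05). Phlpp1, a phosphatase that removes phosphate from AKT, fell too, by 0.90 on the log2 scale. So did Akt1 (-0.47), a kinase that phosphorylates FOXO, and Insr (-0.33), the receptor of insulin. Both activators and inhibitors of the arm are thus among the genes that fell.

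The genes of this arm that rose also included both kinds. Pik3r3, a regulatory subunit of PI3K, was at 1.77 and 2.08 RPKM in controls and 5.11 and 5.11 RPKM after knockdown (log2 change 1.21, adjusted p = 3.59e-06). Inpp5d, an inositol phosphatase, rose by 0.73. Trib3, a pseudokinase that binds AKT, had 18.9 and 40.3 RPKM in its controls and 50.0 and 55.3 RPKM after knockdown. Its control replicates differed widely, and its call was lost when no filter on low values was used (adjusted p = 0.0951).

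In the mTOR complexes and their TSC and Rheb switch, 7 of 17 tested genes were lower, 3 higher and 7 not called, with a median of -0.01 beside -0.015 for all genes. Rptor and Mtor, the scaffold and the kinase of the nutrient-sensing complex, were at 18.3 ± 0.290 and 28.0 ± 2.02 RPKM in controls and at 10.2 ± 0.188 and 18.4 ± 0.644 RPKM after knockdown. Eif4ebp2, a translation repressor that mTOR phosphorylates, went from 233 ± 0.540 to 146 ± 11.5 RPKM. Mlst8 and Rheb were the members that rose most, with Rheb at 16.2 ± 0.443 and 21.0 ± 0.546 RPKM. Tsc1, the third called higher (log2 change 0.29), lost its call without control replicate 2, without either knockdown replicate and with no filter (adjusted p of 0.0762, 0.113, 0.0687 and 0.0683). Its log2 change was 0.18 without siCTRL replicate 2 and 0.27 to 0.32 in the other 3 of these settings. The higher count was 5 with the GC trend removed and 2 without siCTRL replicate 2, without siHnrnpk replicate 1 and without siHnrnpk replicate 2.

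Among 28 tested genes for 14-3-3 proteins, the export receptor and enzymes that modify FOXO, 7 were higher, 8 lower and 13 not called, with a median of -0.02. Mdm2, a ubiquitin ligase that is also a p53 target, was at 41.1 and 36.5 RPKM in controls and 117 and 121 RPKM after knockdown (log2 change 1.61, adjusted p = 1.76e-07). Sfn, the 14-3-3 sigma gene, rose by 0.90, although 44.1% of its transcript is shared with 1 or more other genes. Sirt1, a deacetylase of FOXO, went from 26.4 ± 0.0916 to 46.7 ± 2.98 RPKM. Of the genes that fell, Setd7, a lysine methyltransferase, changed most, from 5.45 ± 0.174 to 1.70 ± 0.0950 RPKM. Usp7, a deubiquitinase (-0.50), and Stub1, a ubiquitin ligase (-0.43), changed less. The lower count was 5 without siHnrnpk replicate 1. Xpo1, the exportin that carries FOXO out of the nucleus, had a log2 change of -0.10 and was not called.

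Downstream, genes of cell cycle arrest, DNA repair and cell death that FOXO proteins are reported to raise or repress had 11 of 18 tested members higher, 3 lower and 4 not called, with a median of 0.31. Cdkn1a, the p21 inhibitor of cyclin-dependent kinases, was at 25.6 and 16.2 RPKM in controls and at 73.4 and 79.5 RPKM after knockdown (log2 change 1.88, SE 0.162, adjusted p = 7.86e-06). Cited2, a transcriptional coregulator, went from 23.3 ± 0.671 to 65.4 ± 1.19 RPKM. Bcl6, a repressor that FOXO induces in B cells, was at 0.407 ± 0.0115 and 1.31 ± 0.00682 RPKM, and passed the filter through its knockdown libraries. Cdkn1b, the p27 inhibitor and a classical FOXO target, rose by 0.33, and Bcl2l11, which encodes the death protein BIM, had a log2 change of 0.00.

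The 3 genes that fell were Ccnd2 and Ccnd1, cyclins that FOXO proteins are reported to repress, and Mxi1, an antagonist of MYC. Ccnd2 was at 7.31 and 13.1 RPKM in controls and at 3.26 and 3.40 RPKM after knockdown (log2 change -1.43, adjusted p = 0.000167). Ccnd1 went from 38.9 ± 5.47 to 22.5 ± 0.505 RPKM. Several genes of the list are p53 targets as well: without Cdkn1a, Gadd45a and Bbc3, 8 of 15 were higher and 3 lower. The higher count was 7 without siHnrnpk replicate 2.

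The antioxidant and metabolic FOXO targets went both ways, with 7 of 17 tested genes higher, 7 lower and 3 not called and a median of -0.02. Gpx1, a glutathione peroxidase, went from 693 ± 194 to 1574 ± 161 RPKM (log2 change 1.21, adjusted p = 0.000119). Cat, which encodes catalase and is a classical FOXO target, rose by 0.47, while Sod2, the mitochondrial superoxide dismutase, fell by 0.16. Lpin1, a phosphatidate phosphatase, rose by 1.11 with control libraries at 9.71 and 5.82 RPKM. Txnip, which binds thioredoxin and restrains glucose uptake, was at 70.0 and 48.7 RPKM in controls and at 23.1 and 23.6 RPKM after knockdown. The sestrins were split: Sesn2 rose by 0.73 and Sesn1 by 0.37, and Sesn3, often described as the FOXO-responsive one, fell by 0.68. Sesn1 and Sesn2 are p53 targets too, and without them 5 of 15 were higher and 7 lower. Sepp1, the selenium carrier, fell by 0.66.

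FOXO3 is reported to raise genes of autophagy and atrophy, and FOXK to hold down genes of autophagy. The list covers both processes, and whether each gene is a target of either was not tested. Of its 25 genes, 16 were higher, 7 lower and 2 not called, with a median of 0.29. Gabarapl2, a ubiquitin-like protein of the autophagosome membrane, was at 24.4 and 27.2 RPKM in controls and at 85.3 and 100.1 RPKM after knockdown (log2 change 1.82, SE 0.0874, adjusted p = 2.96e-07). Atg14, which targets the lipid kinase complex to the forming autophagosome, was at 17.4 and 17.5 RPKM and then 51.0 and 51.9 RPKM (log2 change 1.53, adjusted p = 1.04e-07). Gabarap, of the same family as Gabarapl2, went from 87.1 ± 5.70 to 195 ± 3.95 RPKM. Map1lc3b (1.03), the LC3 protein used to mark autophagosomes, and Sqstm1 (1.03), the p62 cargo receptor, rose as well. The 2 genes not called were Gabarapl1 (0.13) and Fbxo30 (0.15).

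The 7 genes of this list that fell were Bnip3, Ulk2, Fbxo31, Wipi1, Trim63, Map1lc3a and Glul. Ulk2, an initiating kinase, was at 1.72 and 1.36 RPKM in controls and at 0.522 and 0.451 RPKM after knockdown, and passed the filter through its control libraries. Its relative Ulk1 rose by 0.32. Bnip3, a mitophagy receptor, fell by 1.07, but 94.2% of its transcript is shared with other genes, and its control libraries stood at 13.5 and 7.50 RPKM. Fbxo31, an F-box protein, fell by 0.48. Map1lc3a, the other LC3 gene of the list, fell by 0.27, Wipi1, a lipid-binding protein of forming autophagosomes, by 0.42, and Glul, glutamine synthetase, by 0.26. Of the muscle ubiquitin ligases, Trim63 (MuRF1) fell by 0.31. Fbxo32 (atrogin) was called higher by 0.36, at 0.476 ± 0.0971 RPKM in controls and 0.750 ± 0.0471 RPKM after knockdown, and passed the filter through its knockdown libraries. The lower count was 4 without siHnrnpk replicate 1 and 4 with no filter.

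On the FOXK side, the list was wider than the glycolytic genes that FOXK proteins are reported to raise. It also held transporters, Hif1a, and both the kinases and the phosphatases of pyruvate dehydrogenase. Of these 26 genes 18 fell, 2 rose and 6 were not called, with a median of -0.43. Pdp1, one of the phosphatases, is among those that fell (-0.64). Pdk1, the kinase that shuts off pyruvate dehydrogenase, was at 34.5 and 32.1 RPKM in controls and at 5.96 and 5.69 RPKM after knockdown (log2 change -2.42, SE 0.0710, adjusted p = 2.34e-08). Slc16a3, a lactate exporter, was at 22.6 and 18.6 RPKM and then 5.75 and 6.36 RPKM (log2 change -1.68). Ldha, lactate dehydrogenase A, went from 466 ± 13.9 to 178 ± 13.2 RPKM, with 55.0% of its transcript shared with other genes. Without the 4 genes that share over 50% of their transcript (Ldha, Eno1, Pgk1 and Pkm2), 14 of 22 fell and 2 rose. Genes that share less stayed in: Pgam1 (43.1%, not called), Gapdh (36.1%) and Tpi1 (19.3%), which fell, and Gpi1 (27.3%), which rose. Hif1a, which encodes the hypoxia factor known to drive many of these genes, had a log2 change of 0.01 and was not called.

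The glycolytic genes called higher were Gpi1, the isomerase of glucose-6-phosphate (114 ± 0.484 to 149.8 ± 2.63 RPKM), and Pdk4. Pdk4, itself a known FOXO target, was at 2.50 and 1.81 RPKM in controls and at 3.13 and 2.93 RPKM after knockdown. Its call was lost without siHnrnpk replicate 1 (adjusted p = 0.0734) and with no filter (adjusted p = 0.0739), which left 1 higher. With the GC trend removed 4 were higher.

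Partners of FOXK proteins, among them the SIN3 corepressor, the BAP1 deubiquitinase complex and Dishevelled proteins, had 10 of 28 tested genes higher, 9 lower and 9 not called, with a median of 0.08. Changes were small, from -0.75 (Srf, a transcription factor whose sites FOXK1 can share) to 0.64 (Dvl2). The Dishevelled genes, whose proteins FOXK carries into the nucleus, did not move together: Dvl2 was at 39.1 and 35.5 RPKM in controls and 57.5 and 58.9 RPKM after knockdown, whereas Dvl1 (-0.72) and Dvl3 (-0.37) fell. Sin3a, a corepressor scaffold, fell by 0.43, while Sin3b (0.05) and Bap1 (0.05) were not called. Sap30 and Sap18, smaller SIN3 subunits, rose by 0.49 and 0.54.

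**Figure D4:**
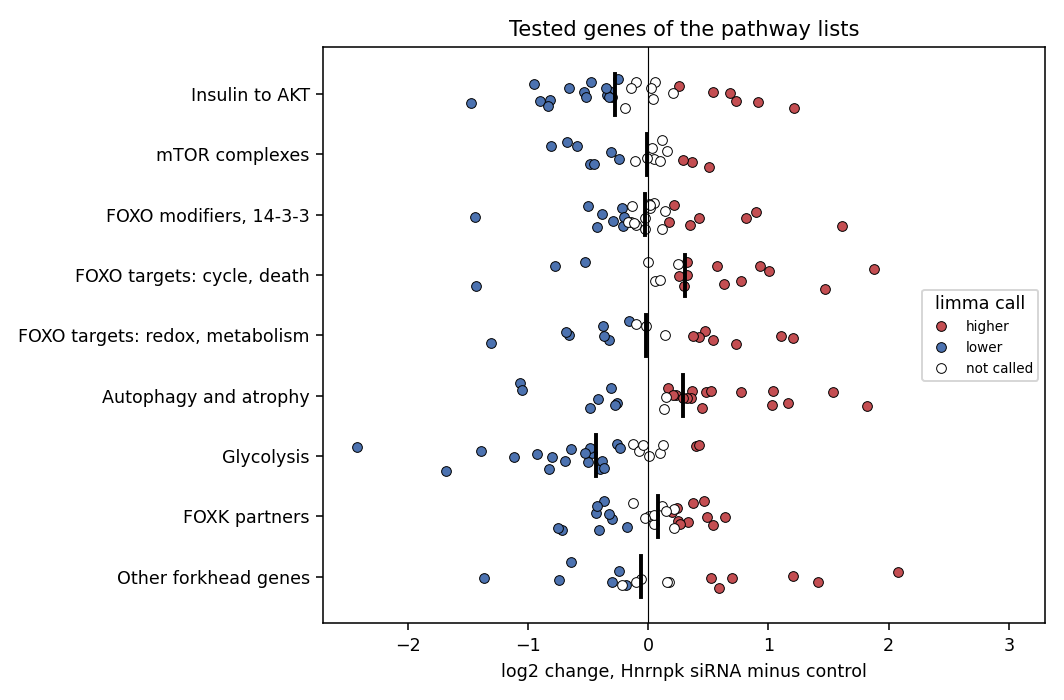
Each point is a tested gene of a list (rows), placed by its log2 change (x; Hnrnpk siRNA minus control); red was called higher, blue lower and white not called by limma, black bars are medians, and vertical scatter is only for visibility. The glycolysis median is -0.43 and the autophagy and cell cycle medians 0.29 and 0.31, while the mTOR, modifier and redox medians lie near 0.

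The rest of the forkhead family gives the setting for the 6 members. Of 37 other forkhead genes measured, 17 passed the filter, and 6 were higher, 6 lower and 5 not called, with a median log2 change of -0.06. Foxa1, a pioneer factor of endoderm, was at 0.362 and 0.263 RPKM in controls and at 2.83 and 3.02 RPKM after knockdown (log2 change 2.08, adjusted p = 2.98e-07). Foxi3 was at 4.01 ± 0.112 and 11.5 ± 0.139 RPKM, and Foxq1 at 0.399 ± 0.161 and 1.59 ± 0.501 RPKM. Foxa1 and Foxq1 passed the filter through their knockdown libraries. Foxh1, a partner of SMAD proteins in Nodal signaling, was the highest of these genes and rose from 44.7 ± 0.415 to 72.7 ± 1.18 RPKM.

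Among forkhead genes that fell, Foxr2 was at 2.62 and 2.65 RPKM in controls and at 0.665 and 0.775 RPKM after knockdown (log2 change -1.36). Foxp1 went from 12.0 ± 1.22 to 6.96 ± 0.252 RPKM and Foxr1 from 1.83 ± 0.0770 to 0.995 ± 0.0313 RPKM. The log2 change of Foxk2, -2.15, lies below those of all 17, and its control level of 37.5 RPKM was below those of Foxh1 and Foxm1 among the 17. Foxm1, a regulator of mitotic genes, had a log2 change of -0.06 and was not called. Whether Foxk2 differs from the family was not tested. The lower count was 3 without siHnrnpk replicate 2, and the higher count was 11 with no filter.

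**Figure D5:**
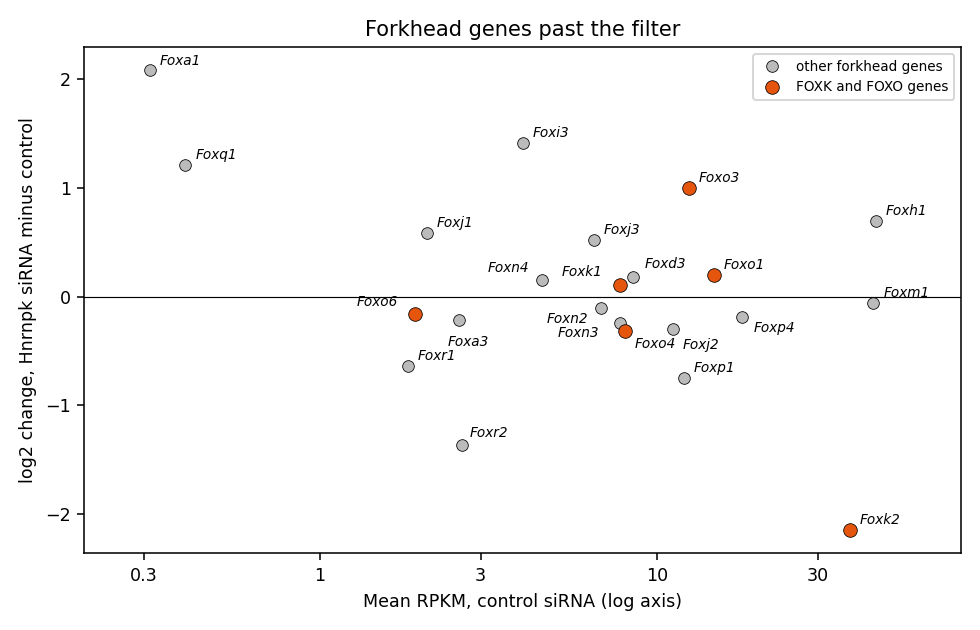
Mean control RPKM on a log axis (x) against the log2 change (y; Hnrnpk siRNA minus control) of the 6 members and the 17 other forkhead genes past the filter, each point a gene. Foxk2 lies lowest at -2.15 and Foxa1 highest at 2.08, and Foxh1, Foxm1 and Foxk2 lie farthest to the right.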

How the data were processed

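RNA-seq was measured in 4 libraries (2 per group). The values are RPKM per gene in 1 table as deposited by the authors, 1 column a library, replicates not pooled. The submitters' processing notes name BWA, SAMtools and mm9 without roles or versions, and the labels describe both ribosomal RNA depletion and poly(A) selection. Coordinates were taken by identifier from GENCODE M21 (GRCm38; 20551 of 22138 identifiers, 92.8%), not the build of the files. Whole reads could not be recovered (28.2% to 29.9% of low values within 0.02 of a whole number), so no count test was used. Their smallest steps gave a relative depth of 0.882 to 1.

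The 12486 genes that averaged 0.5 RPKM or more were fitted as log2(RPKM + 0.5) with limma 3.58.1 (R 4.3.3), using limma's mean-variance trend, 7.47 prior degrees of freedom, moderated two-sided tests and Benjamini-Hochberg adjustment, called at 0.05. The pseudocount understates changes of low genes. The script was tested on simulated data with independent noise and few changed genes. Many genes changed in these data, so that test does not measure how reliable the calls here are. Replicate numbers did not pair the libraries (correlation of deviations 0.0267) and no block was used.

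The members and the 9 lists were chosen with earlier results of these data known. The rule named all members, up to 3 genes called higher and 3 lower per list, the 3 genes nearest in pattern to the members with the largest fall and rise, chromosomal neighbors, and Hnrnpk. A gene of the insulin to AKT list that the rule names is not reported here. Other genes were named after their values were seen. The longest annotated transcript of each gene, coding or not, was compared by BLAST 2.17.0 at 95% identity over at least 100 bases. Where that transcript is a long non-coding form, the share of the coding transcript can be higher. Alternatives were other pseudocounts and filters, other scalings, no trend, the block, GC correction, and each library left out. The 2 FOXO target lists without the p53 targets named above were added after seeing the data, and other p53 targets may remain in them. Rps6kb1, Rps6kb2 and Foxl1 were not matched and not analysed here.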

Additional observations from a re-analysis of the deposited data

How the results depend on the processing

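Over the alternatives run, 281 of the recomputed counts and shares stayed within 1.5 times the reported value or within replicate spread, 10 moved and none reversed. Some of the 281 could not move. Whether a member's groups overlap cannot change with the pseudocount, the mean-variance trend or the block. The Foxk2 share of a library cannot change with median-ratio scaling. The 281 also include rows on members chosen for their change, so this number does not measure robustness. With no filter, 11 other forkhead genes were higher (reported 6), 4 autophagy genes lower (7) and 1 glycolytic gene higher (2). With the GC trend removed, 5 mTOR genes (3) and 4 glycolytic genes (2) were higher. Leaving out 1 library gave 3 to 6 other forkhead genes lower (6), 5 to 9 FOXO modifiers lower (8), 7 to 13 cell cycle and death targets higher (11), 4 to 7 autophagy genes lower (7) and 1 to 3 glycolytic genes higher (2). The cause of these shifts was not tested, beyond the smaller number of libraries or the larger number of genes tested. Leaving out 1 library gave 3155 to 4033 genes higher and 3552 to 4502 lower over all genes. With the replicate number as a block, 4162 genes were higher and 4460 lower, against 4025 and 4371 without it. No call of a gene that the rule names changed under the block, and the other named genes were not checked singly. Under the block, 7 genes of the insulin to AKT list (reported 6) and 11 FOXK partners (10) were higher. Foxo6, with an estimated 433 counting units in its lowest library (a counting error of about 4.81%), had the lowest estimated depth of the members.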

Other observations

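The genes with the pattern most like Foxk2 over the 4 libraries, by Euclidean distance of centered log2 values, were Tubb4 (distance 0.0861), Mt3 (0.155) and Scd1 (0.176). Mt3, a metallothionein, was at 45.8 ± 1.73 RPKM in controls and 10.2 ± 0.508 RPKM after Hnrnpk siRNA, and Scd1, the desaturase that makes oleic acid, at 57.6 ± 9.04 and 14.1 ± 0.331 RPKM. Those most like Foxo3 were Irx2 (0.0273), Ankrd56 (0.0509) and Lamp2 (0.0573). Lamp2, a lysosomal membrane protein, was at 6.79 and 5.77 RPKM in controls and at 13.3 and 12.7 RPKM after knockdown. With 4 libraries, many genes that change by the same amount have a small distance.

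On the chromosome, Lace1, 35830 bases from Foxo3 on the same strand, went from 5.61 ± 0.915 to 13.1 ± 0.634 RPKM (log2 change 1.16, limma adjusted p = 9.04e-06), and Armc2 on the other side was too low to test. The neighbors of Foxk2 did not fall: Narf, 4134 bases away, rose from 7.20 ± 0.658 to 10.1 ± 0.0685 RPKM (limma adjusted p = 0.000713), and Wdr45l, 17328 bases away, was at 46.7 ± 1.64 and 47.9 ± 2.76 RPKM and was not called. C330006K01Rik beside Foxk1 (0.47) and Snx12 beside Foxo4 (0.29) rose. Scmh1 beside Foxo6 (-0.14) and Gm10293 beside Foxo1 (-0.10) were not called, but Gm10293 shares over 50% of its transcript with other genes and was called lower without siHnrnpk replicate 1 (log2 change -0.43, adjusted p = 0.0155).

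The forkhead site GTAAACA, searched on both strands in the 250 bases before the start, was in 956 of 27025 genes (3.54%). It was in 4 of the 17 cell cycle and death targets with a promoter in the table (Bcl2l11, Bbc3, Btg1 and Mxi1). Of these Bbc3 and Btg1 rose, Mxi1 fell and Bcl2l11 was not called. It was in 1 of 19 autophagy and atrophy genes (Trim63), 1 of 21 redox and metabolism targets (Txnip) and 1 of 24 glycolytic genes (Aldoc), and these 3 fell. Of the other lists, it was in Mdm2 (FOXO modifiers) and Foxa1 (other forkhead genes), which rose, in Akt1 (insulin to AKT), which fell, in Mapkap1 (mTOR), which was not called, and in 0 of 24 FOXK partners. None of the 11 autophagy genes called higher that have a promoter in the table held it. A match describes letters in this window only.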
